A study of Mus musculus with 6 samples.

Results

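Mammalian skin secretes sebum, a lipid mixture that can include wax esters, triglycerides and cholesterol esters, from sebaceous glands attached to the hair follicles. Its fatty acids are built from acetyl units, elongated, desaturated and hydroxylated, and are then joined to alcohols, glycerol or cholesterol by acyltransferases while the sebocyte fills with droplets. Several of the enzymes are also made by adipocytes or keratinocytes, so a piece of skin holds more than 1 source of their transcripts.

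The 10 genes described here encode the hormone receptor Mc5r, the desaturases Scd1, Scd3 and Fads2, the elongase Elovl3, the hydroxylase Fa2h, and the acyltransferases Awat1, Awat2, Mogat1 and Soat1. They were taken by name from the 33308 genes of the deposited table, and all 10 were found in it. RNA-seq had been run on skin from mice treated with osimertinib for 42 days (3 libraries) and from untreated mice (3 libraries, called control). Osimertinib blocks signalling of the epidermal growth factor receptor, EGFR, and the study asked how it brings about skin problems. The labels give no strain, sex, age, dose or body site, and do not say whether libraries of a group came from separate mice. The p-values therefore set a group difference against the spread between libraries. This spread may be partly technical and need not reflect variation between mice.

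Library totals were 59877553 to 60719064 counts in osimertinib skin and 54112624 to 57174797 counts in control skin. Libraries differed in tissue content within groups. Summed hair shaft keratins also differed between groups, being higher in every osimertinib library than in any control, with values given beside Fads2 below. The 15 skeletal muscle markers took 4.02% to 6.72% of the count in osimertinib skin, and 4.28%, 12.3% and 0.0288% in controls 1, 2 and 3. In these bulk samples, fewer cells of a type and less RNA per cell cannot be told apart.

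Levels between genes were compared per length, as FPKM, the fragments of a gene scaled to its transcript length and to the library's depth. Averaged over the 6 libraries, Scd1 was at 164 FPKM, followed by Elovl3 at 37.0, Fa2h at 34.7, Awat1 at 12.9 and Soat1 at 9.52 FPKM. Below these lay Fads2 at 3.08, Scd3 at 2.71, Mc5r at 1.70, Awat2 at 1.01 and Mogat1 at 0.387 FPKM. Scd1 exceeded every other member in all 6 libraries, the lowest Scd1 value being 77.4 FPKM and the highest value of any other member 73.7 FPKM, of Elovl3 in osimertinib 3. Below Scd1, the ranges over libraries of every pair of neighbours in this order overlapped. Within libraries, however, Fa2h was above Awat1, Awat1 above Soat1 and Mc5r above Awat2 in all 6, while the order of the other neighbours below Scd1 changed between libraries.

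The test covered the 13498 genes that averaged 1 FPKM or more, and 9 of the 10 members were among them. Awat2 lay just inside this limit and Mogat1 outside it. With edgeR's quasi-likelihood test and Benjamini-Hochberg adjustment over all 13498 genes, 0 members passed an adjusted p of 0.05, against a background of 0% of all genes tested. At an unadjusted p under 0.05, 1 member (Fads2, higher in osimertinib skin) passed, against 14% of all genes in either direction and 7.22% with osimertinib higher. DESeq2 also called this 1 member as higher, and it called 6.36% of all genes, 3.41% as higher and 2.95% as lower. In CPM the groups did not overlap for 2 members, Fads2 and Scd3, against 20.7% of all genes. The median log2 fold change of the 9 members was −0.12, against −0.05 for all genes tested, and 5 of 9 were negative, against 54.7% of all genes. Without osimertinib 3 the members' median was −0.93, and it was 0.25 without control 1, 0.03 without osimertinib 1 and 0.10 without osimertinib 2. Levels below are in CPM, a gene's count relative to the library's summed count over the 13498 genes tested, after TMM scaling. Fold changes are osimertinib over control with their standard error (SE).

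**Figure D1:**
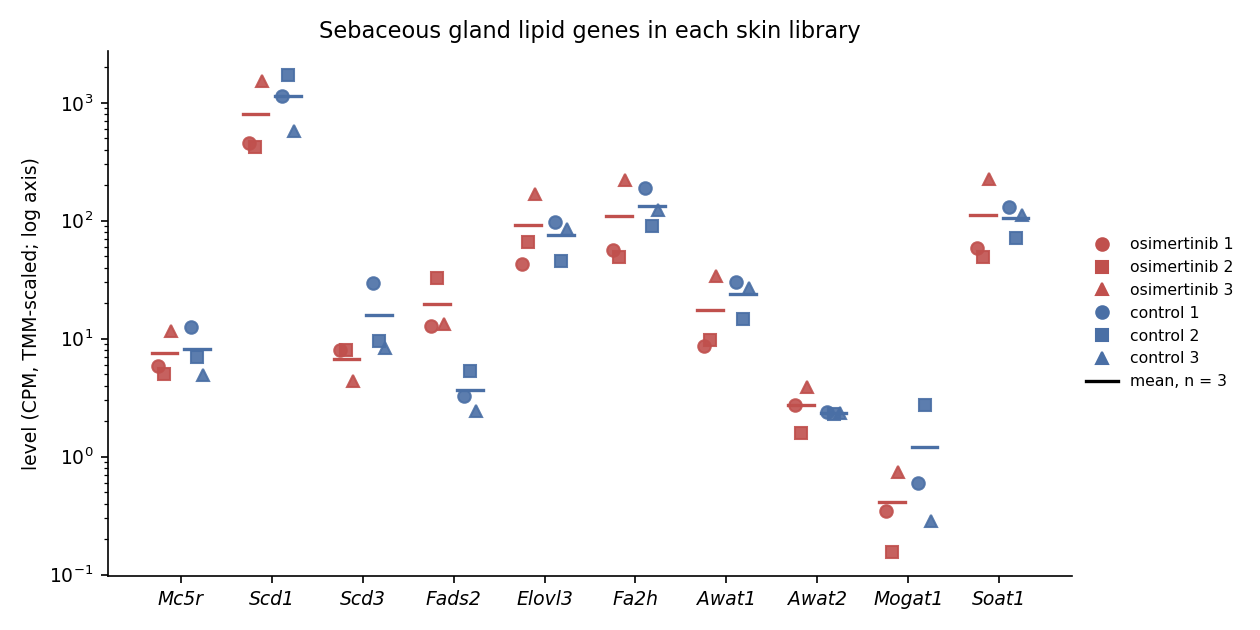
Level of each of the 10 genes in every library (CPM on a log axis, red for osimertinib, blue for control, bars for the mean of 3). Fads2 is the gene with a clear gap between the groups, while in most others the osimertinib 3 triangle stands above the other osimertinib points.

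Of the desaturases, Fads2 was higher in every osimertinib library than in any control. Fads2 encodes the fatty acid desaturase that opens the synthesis of long polyunsaturated fatty acids and that makes sapienate, a sebum fatty acid, in human sebocytes. It was at 12.7, 32.5 and 13.4 CPM in osimertinib libraries 1, 2 and 3, and at 3.25, 5.33 and 2.44 CPM in controls 1, 2 and 3. Groups of 3 that do not overlap, with osimertinib higher, were found in 11.3% of all genes tested. The mean was 19.5 ± 11.2 CPM in osimertinib skin and 3.67 ± 1.49 CPM in control skin (SD, n = 3 each). The fold change was 5.33 (log2 fold change 2.41 ± 0.51, SE), with an adjusted p of 0.192 in edgeR and 0.000674 in DESeq2. Over the alternatives tried the log2 fold change ran from 1.62 with limma on log2(FPKM + 1) to 2.81 without control 2. Adjusted p ran from 0.000674 in DESeq2 to 0.698 in edgeR without control 1. Without osimertinib 2 the log2 fold change was 1.83. That library had the highest Fads2 level and the highest summed hair shaft keratins (4747 CPM, against 1036 and 529 CPM in osimertinib 1 and 3). In controls 1, 2 and 3 these keratins summed to 31.7, 223 and 34.6 CPM, below every osimertinib library. The part of hair follicle content in the Fads2 level was not tested.

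The gene lies on chromosome 19 (10062765 to 10101746, minus strand, GRCm38), between Fads3 and Fads1. Fads1, the next desaturase on the same route, lies 81.1 kb from it and was at 29.5, 41.2 and 35.1 CPM in osimertinib libraries and at 21.2, 17.8 and 18.8 CPM in controls. Its groups did not overlap either, and its log2 fold change was 0.87 ± 0.18 (SE, adjusted p = 0.192 in edgeR and 0.00247 in DESeq2). Fads3, 2.65 kb away on the other side, overlapped between the groups, with 12.9, 36.1 and 14.3 CPM in osimertinib libraries and 10.3, 19.4 and 10.5 CPM in controls. As a share of the summed FPKM of the Fads genes, Fads2 made up 28.8%, 35.3% and 26.9% in osimertinib libraries 1, 2 and 3, and 12.2%, 15.5% and 9.99% in controls 1, 2 and 3.

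Scd1, the stearoyl-CoA desaturase that makes oleate and whose loss in the asebia mouse leaves rudimentary sebaceous glands, did not separate the groups. It was at 452, 420 and 1542 CPM in osimertinib libraries 1, 2 and 3, and at 1137, 1735 and 572 CPM in controls 1, 2 and 3. Control 2 was the highest library and osimertinib 2 the lowest, the groups overlapped, and osimertinib 3 held 3.53 times the mean of the other osimertinib libraries. The log2 fold change was −0.51 ± 0.66 (SE, edgeR adjusted p = 0.808), or −1.39 without osimertinib 3 and −0.05 without control 2. Adipocytes also make Scd1. Their 12 markers, all detected, summed to 1090, 1171 and 2344 CPM in osimertinib libraries 1, 2 and 3, and to 2735, 4417 and 568 CPM in controls 1, 2 and 3. Osimertinib 3 and controls 1 and 2 had the highest 3 values of both. The ranks were otherwise not the same, as control 3 had the lowest adipocyte sum but more Scd1 than osimertinib 1 and 2. The part of fat tissue in the Scd1 level was not tested beyond a fit with the adipocyte score as a covariate, in which the log2 fold change was −0.22.

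Scd3, a stearoyl-CoA desaturase known from skin sebocytes and the Harderian gland of the mouse, was at 7.96, 7.98 and 4.42 CPM in osimertinib libraries and at 29.7, 9.63 and 8.35 CPM in controls. Control 1 alone stood far above the rest, and the other controls lay just above the osimertinib libraries. Groups that do not overlap with osimertinib lower were found in 9.38% of all genes tested, and in FPKM the Scd3 groups overlapped (2.06 in osimertinib 2 against 1.84 in control 2). The log2 fold change was −1.23 ± 0.56 (SE, edgeR adjusted p = 0.397) and −0.41 without control 1.

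Scd1, Scd3 and their relatives Scd2 and Scd4 lie within 204 kb on chromosome 19, in the order Scd3, Scd2, Scd4, Scd1. Of the 100-base words in Scd1 and Scd3 transcripts of GENCODE M21, 2.58% and 2.49% also occur in transcripts of another gene, against 0.879% in Scd2 and 0% in the other members, so most of their sequence is not shared with a copy. Scd2, the form of brain and young skin, was at 148, 247 and 148 CPM in osimertinib libraries and at 54.8, 74.8 and 42.8 CPM in controls. Its groups did not overlap and its log2 fold change was 1.66 ± 0.32 (SE, adjusted p = 0.189 in edgeR and 0.000701 in DESeq2). Of the summed FPKM of the 4 genes, Scd2 made up 22.2%, 33.8% and 7.89% in osimertinib libraries 1, 2 and 3, and 3.69% to 6.15% in controls. Scd1 made up 75.8%, 64.3% and 91.7% in osimertinib libraries and 92.6%, 95.5% and 91.9% in controls. Scd1 was therefore the main Scd transcript in all 6 libraries, and its share was lower than in any control in each osimertinib library, in osimertinib 3 only slightly so.

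**Figure D2:**
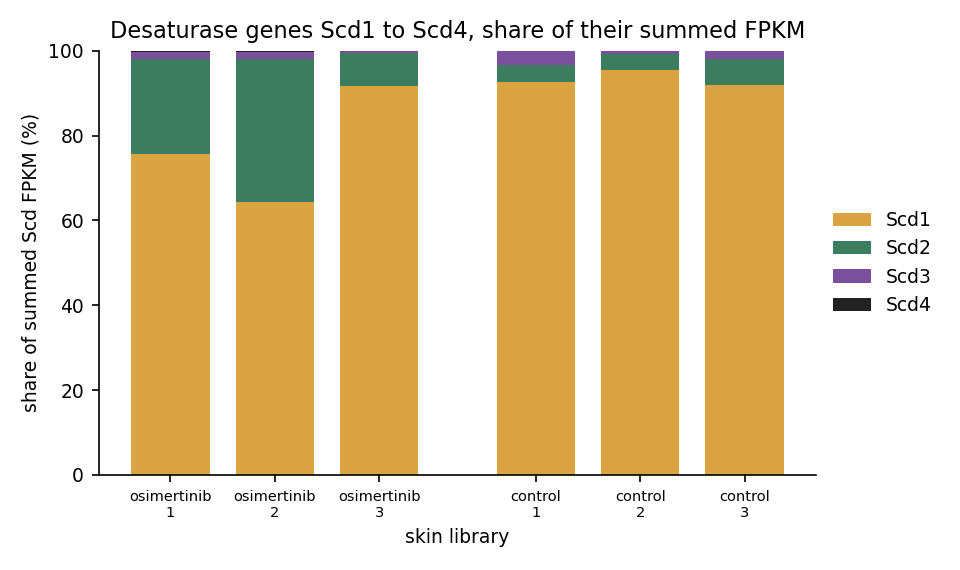
Share of Scd1, Scd2, Scd3 and Scd4 in their summed FPKM (percent, 1 bar per library, osimertinib left of control). Scd2 takes 33.8% in osimertinib 2 and 3.69% in control 2.

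The elongase, the hydroxylase and a pair of the acyltransferases were all highest in osimertinib 3 and low in osimertinib 1. Elovl3 extends saturated and monounsaturated fatty acids in sebaceous glands and brown fat, and mice without it have a sparse coat and poor water repulsion. It was at 42.9, 66.4 and 168 CPM in osimertinib libraries 1, 2 and 3, and at 96.8, 46.0 and 85.3 CPM in controls 1, 2 and 3. Osimertinib 3 was the highest library and osimertinib 1 the lowest, with every control between them. The log2 fold change was 0.28 ± 0.55 (SE, edgeR adjusted p = 0.899). Elovl3 shares 10 exon bases with Pitx3 on the opposite strand, which reached at most 2.37 FPKM.

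Fa2h puts a hydroxyl group on fatty acids of sphingolipids and sebum waxes. It was at 56.4, 49.5 and 221 CPM in osimertinib libraries, and at 189, 90.0 and 125 CPM in controls. Osimertinib 3 was again the highest, at 4.18 times the mean of the other osimertinib libraries, which both lay under every control. The log2 fold change was −0.30 ± 0.64 (SE, edgeR adjusted p = 0.911).

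Awat1 joins fatty alcohols and acyl groups into wax esters. It was at 8.61, 9.72 and 34.1 CPM in osimertinib libraries, and at 30.1, 14.7 and 27.0 CPM in controls. As for Fa2h, osimertinib 1 and 2 lay below and osimertinib 3 above all controls. The log2 fold change was −0.45 ± 0.60 (SE, edgeR adjusted p = 0.815).

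Soat1 esterifies cholesterol for storage, in sebocytes and in many other cells. It was at 59.3, 49.0 and 226 CPM in osimertinib libraries, and at 132, 71.6 and 112 CPM in controls. Here too osimertinib 3 lay above, and osimertinib 1 and 2 below, every control. The log2 fold change was 0.08 ± 0.63 (SE, edgeR adjusted p = 0.981), and its sign turned with quantile normalization (−0.21), with limma at a pseudocount of 1 FPKM (−0.11) and when replicate number was a block (−0.24). With quantile normalization the signs of Elovl3, Fa2h and Awat1 stayed as given.

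Because a single library carried the osimertinib mean of these 4 genes, the values without it are given. Without osimertinib 3 the log2 fold changes were −1.35 for Awat1, −1.32 for Fa2h, −0.93 for Soat1 and −0.44 for Elovl3, with edgeR adjusted p of 0.434, 0.439, 0.456 and 0.75. This library was left out in these values after its levels had been seen. Its 12 epidermal keratinocyte markers summed to 11990 CPM, close to osimertinib 2 (12365 CPM) and under osimertinib 1 (24759 CPM) and the controls (16203 to 46680 CPM). Krt5 and Krt14 made up most of this sum, at 5151 and 5215 CPM, and with Itga6 lay above their osimertinib 2 levels. Krt10, Lor, Flg and Ivl were at 169, 75.1, 18.1 and 8.20 CPM, against 742, 832, 92.5 and 36.1 CPM in osimertinib 2. These, and Krt15, Col17a1, Krt1, Dsg1a and Dsc1, were lower in osimertinib 3 than in any other library. The 8 dermal fibroblast markers of osimertinib 3 summed to 3367 CPM, against 2409 and 1347 CPM in osimertinib 1 and 2 and 2935 to 4170 CPM in controls. The part of these differences in tissue content in the levels of the 4 genes was not tested.

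**Figure D3:**
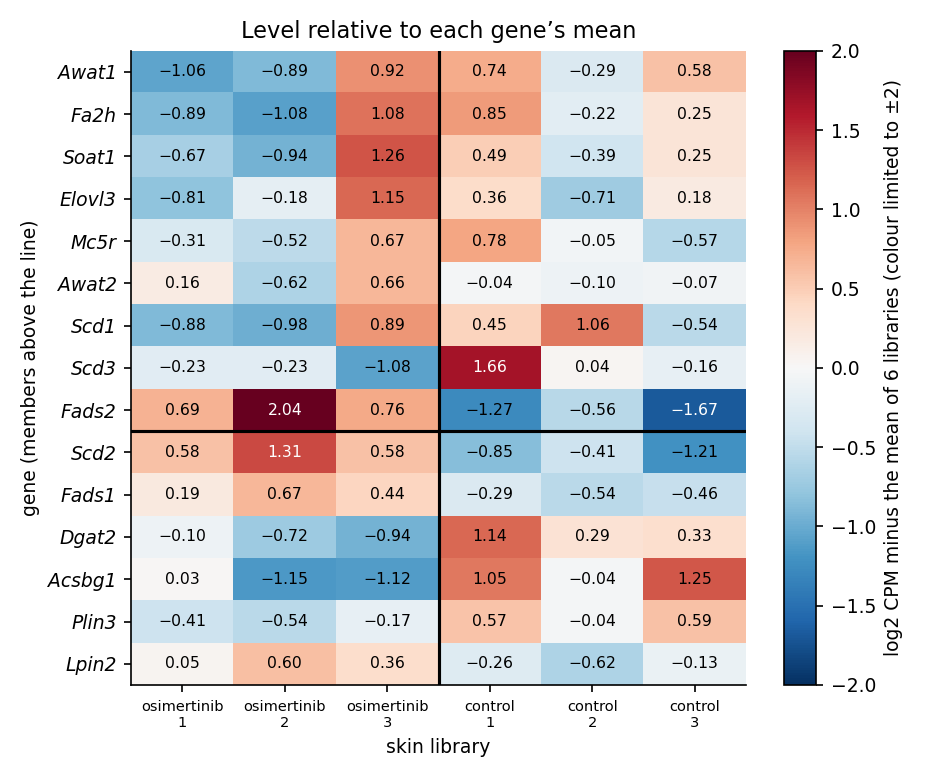
Log2 CPM of each gene minus its mean over 6 libraries, in osimertinib (left of the line) and control libraries, with the 9 members tested above the horizontal line and other lipid genes below. Awat1, Fa2h, Soat1 and Elovl3 share high values in osimertinib 3 and low values in osimertinib 1, whereas Fads2, Scd2 and Fads1 are positive in all osimertinib libraries.

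Likeness between members was measured as the root mean square difference of their mean-centred log2 CPM over the 6 libraries, a description without a test. The smallest difference was that of Awat1 and Fa2h, 0.192, followed by Fa2h and Soat1 at 0.212 and Awat1 and Soat1 at 0.278. Elovl3 was nearest to Soat1 (0.349) and Mc5r to Awat2 (0.439). Fads2 differed by at least 1.39 from every other member, its nearest being Awat2, and Scd3 by at least 0.824, its nearest being Mc5r. The name of the set thus covers genes that did not follow a common order of libraries.

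Reference sequence before the start site is shown for Awat1 and Soat1, in both of which osimertinib 3 lay above and osimertinib 1 and 2 below every control, and for Awat2, in which osimertinib 1 and 3 lay above and osimertinib 2 below every control. The sequences are from RefSeq (GRCm38.p6), 5′ to 3′ on the strand of the gene, without bases that GENCODE places in an exon of the gene. Capitals mark the CCAAT box. RefSeq windows were found for 6 of the 10 members.
Awat1, chrX:100571997-100572246, plus strand: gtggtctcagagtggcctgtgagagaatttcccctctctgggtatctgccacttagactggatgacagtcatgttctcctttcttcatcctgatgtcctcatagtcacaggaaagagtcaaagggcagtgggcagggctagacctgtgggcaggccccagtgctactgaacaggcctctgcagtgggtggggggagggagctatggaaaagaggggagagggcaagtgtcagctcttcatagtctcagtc
Soat1, chr1:156474332-156474578, minus strand: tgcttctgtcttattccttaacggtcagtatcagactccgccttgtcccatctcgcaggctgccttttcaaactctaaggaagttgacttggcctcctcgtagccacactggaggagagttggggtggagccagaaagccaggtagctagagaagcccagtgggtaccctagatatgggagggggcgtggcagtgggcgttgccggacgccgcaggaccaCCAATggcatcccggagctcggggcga
Awat2, chrX:100442718-100442967, minus strand: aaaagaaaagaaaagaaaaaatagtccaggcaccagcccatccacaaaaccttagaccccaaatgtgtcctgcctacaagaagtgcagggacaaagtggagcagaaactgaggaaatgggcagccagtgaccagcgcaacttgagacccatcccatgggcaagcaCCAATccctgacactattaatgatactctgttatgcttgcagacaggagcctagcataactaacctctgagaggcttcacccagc

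The CCAAT box was found before Soat1 (bases −30 to −26 from the RefSeq start) and before Awat2 (bases −85 to −81), and not in the Awat1 window. It occurs on either strand in 33.8% of 32851 RefSeq windows of 250 bases. The sterol regulatory element, searched as TCACNCCAC on both strands, occurs in 1.05% of those windows. The E-box CACGTG occurs in 6.02%, the GC box GGGCGG in 32.7%, the TATA box TATAAA in 12.4% and the PPAR site AGGTCA in 14.0%. None of these 5 was found in the stretches shown, so Awat1 and Soat1 had no searched motif in common there. Awat2 has a further RefSeq window, at chrX:100412588-100412837, that is not shown. It held the CCAAT box on the opposite strand (bases −121 to −117) and a GC box (bases −70 to −65).

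The other acyltransferases were expressed at low levels. Awat2, the wax synthase of meibomian and sebaceous glands, was at 2.76, 1.59 and 3.91 CPM in osimertinib libraries and at 2.39, 2.30 and 2.33 CPM in controls. The controls were almost equal and lay inside the range of the osimertinib libraries, and the log2 fold change was 0.23 ± 0.38 (SE, edgeR adjusted p = 0.863), or −0.15 with quantile normalization. Awat1 lies 130 kb from Awat2 on chromosome X and made up 82.8%, 90.4% and 93.0% of the summed FPKM of the pair in osimertinib libraries, against 95.1%, 90.8% and 94.7% in controls.

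Mogat1 adds an acyl group to monoacylglycerol on the way to triglyceride. It was not tested, being under the limit on mean FPKM, and rested on 20, 10 and 45 counts in osimertinib libraries 1, 2 and 3, and on 33, 123 and 18 counts in controls 1, 2 and 3. Control 2, with the highest adipocyte sum, stood above the other 5 libraries, which overlapped between the groups. Mogat1 shares 200 exon bases with BC035947 on the opposite strand, which reached at most 0.271 FPKM, and whether strand was used in counting is not given in the sources used here.

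Mc5r, the melanocortin receptor through which the gland is stimulated to secrete, was at 5.89, 5.06 and 11.6 CPM in osimertinib libraries and at 12.6, 7.05 and 4.90 CPM in controls. High and low libraries occurred in both groups, and the log2 fold change was −0.12 ± 0.48 (SE, edgeR adjusted p = 0.964), turning to 0.0125 with the adipocyte score as a covariate. The group difference of Mc5r was small relative to its spread within groups, where the highest library held 2.29 times the lowest in osimertinib skin and 2.57 times in control skin.

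**Figure D4:**
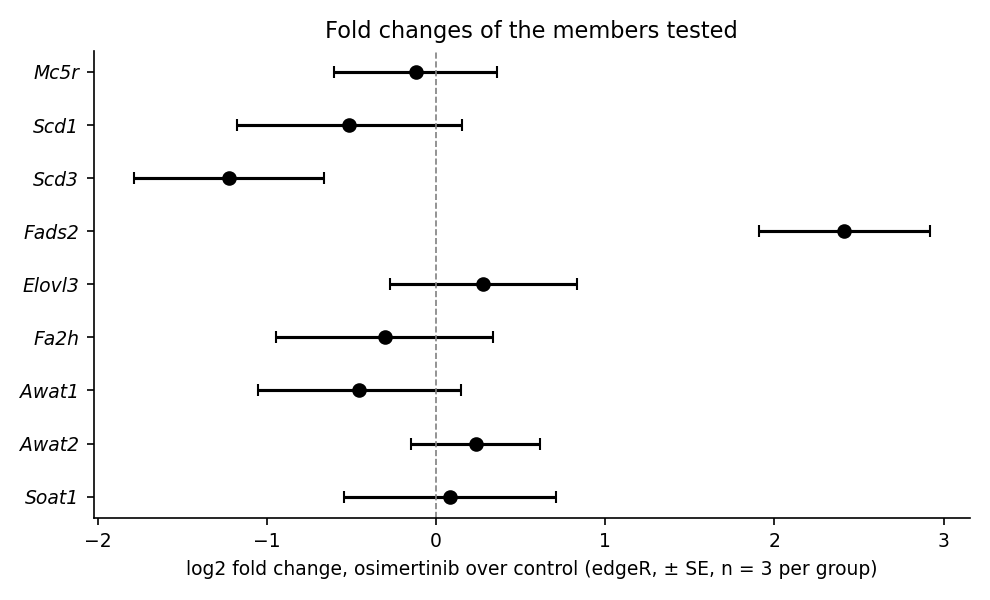
Log2 fold change of the 9 members tested, osimertinib over control, with 1 SE to each side (edgeR, n = 3 per group). For 7 of them the interval of 1 SE holds 0, Fads2 lies at 2.41 and Scd3 at −1.23.

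Genes that work beside the members were taken from lists. Among sebaceous gland regulators and duct genes 7 of 8 were tested, with a median log2 fold change of −0.02. The gene not tested, Gata6, is described at the end. None of the 7 passed in edgeR (0% of all genes), DESeq2 (6.36%) or at an unadjusted edgeR p under 0.05 (14%). With so few genes these counts do not set the list apart from all genes. Krt79, a keratin of the gland duct and upper follicle, had the smallest p of them, with 314, 184 and 391 CPM in osimertinib libraries and 236, 150 and 168 CPM in controls (log2 fold change 0.68 ± 0.34, SE, edgeR adjusted p = 0.432). Pparg, the nuclear receptor that drives sebocyte differentiation, had −0.45 ± 0.55, and Lrig1, a marker of the stem cells that feed the gland, −0.12 ± 0.24, each as log2 fold change with SE. Pparg was at 4.48, 5.11 and 12.9 CPM in osimertinib libraries, with osimertinib 3 again the highest of the group. In controls 1, 2 and 3 Pparg was at 13.1, 12.5 and 5.12 CPM. With the adipocyte score as a covariate the log2 fold change of Pparg was −0.20. The part of fat tissue in the Pparg level was not tested beyond this fit.

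Among genes of fatty acid synthesis, desaturation and elongation 18 of 20 were tested, with a median log2 fold change of −0.23. At an unadjusted p under 0.05 edgeR found 2 higher and 0 lower, DESeq2 called the same number in each direction, and edgeR called 0 after adjustment. The 2 were Scd2 and Fads1, described above, against a background of 7.22% of all genes higher at that p and 3.41% in DESeq2. Next by p were Elovl7, an elongase (−0.79 ± 0.45), and Acly, which supplies cytosolic acetyl-CoA (−0.33 ± 0.20, log2 fold change with SE). Elovl3 made up 12.1%, 24.4% and 31.2% of the summed FPKM of 6 elongases in osimertinib libraries 1, 2 and 3, and 15.0%, 14.1% and 16.7% in controls.

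Among genes of wax ester and triglyceride synthesis and storage 15 of 18 were tested, with a median log2 fold change of −0.43. edgeR called 0 after adjustment and found 3 lower and 1 higher at an unadjusted p under 0.05, where 14% of all genes passed. DESeq2 called 3 lower and 0 higher, against 2.95% of all genes as lower and 3.41% as higher. Dgat2, the enzyme of the last step of triglyceride synthesis, was at 85.9, 55.8 and 48.1 CPM in osimertinib libraries and at 203, 112 and 116 CPM in controls, with groups that did not overlap (log2 fold change −1.19 ± 0.34, SE, adjusted p = 0.265 in edgeR and 0.0259 in DESeq2). The droplet coat protein Plin3 had −0.77 ± 0.22, the acyl-CoA synthetase Acsbg1 −1.49 ± 0.48 and the phosphatidate phosphatase Lpin2 0.68 ± 0.23, each as log2 fold change with SE. Osimertinib 3, in which Awat1, Fa2h and Soat1 were highest, had the lowest Dgat2 level of all libraries.

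Markers of other cell types were read beside these values. Over all genes tested, 14% passed an unadjusted p under 0.05 in edgeR, DESeq2 called 6.36% and 54.7% had a negative log2 fold change. Of 12 adipocyte markers 11 were tested and all 11 had a negative log2 fold change (median −0.94). Their groups overlapped, and 0 were called by edgeR, DESeq2 or at an unadjusted p under 0.05. Pck1, Adrb3, Plin1 and Adipoq had the smallest p. With 1 library left out, Pck1 ran from −3.04 to −0.68 and Adrb3 from −1.39 to −0.36. Plin1 then ran from −1.82 to −0.54 and Adipoq from −1.86 to −0.44. Of 12 epidermal keratinocyte markers all were tested and all were negative (median −1.05), with 0 called by edgeR, 3 lower at an unadjusted p under 0.05 and 1 called by DESeq2, led by Krt15, Itga6, Dsg1a and Col17a1. Of 13 hair shaft keratins 11 were tested and all 11 were positive, with 0 called by edgeR, 3 higher at an unadjusted p under 0.05 and 1 called by DESeq2, led by Krt36, Krt31, Krt33a and Krt35. For 5 of the 11 the groups did not overlap, with osimertinib higher, against 11.3% of all genes tested. Krt36, Krt31, Krt33a and Krt35 kept their sign in every alternative. Their size, however, depended on single libraries of both groups. The log2 fold change of Krt36 was 4.93 with all libraries and 7.58 without control 2. Osimertinib 2 was far the highest library, with Krt31 at 104, 533 and 35.1 CPM and Krt33a at 81.4, 536 and 25.0 CPM in osimertinib 1, 2 and 3. With 1 library left out, Krt31 ran from 2.76 to 7.52, Krt33a from 2.41 to 7.28 and Krt35 from 4.38 to 11.17. No median is given for this list, as several of its genes had 0 counts in a control. The 14 skeletal muscle markers tested had a median of −0.17 and the 8 fibroblast markers a median of −0.04. None of either list was called by edgeR, by DESeq2 or at an unadjusted p under 0.05, with Myh2, Actn3, Pvalb and Mylpf and with Col1a2, Col1a1, Col3a1 and Pdgfra at the smallest p.

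Among 12083 other tested genes with established names, those nearest to the mean pattern of the 9 members were Emilin2 (root mean square difference 0.098 on the log2 scale), Ldb2 (0.0984), Entpd5 (0.109), Clmp (0.12) and Anxa3 (0.137), against a median of 0.537 over all of them. Nearest to Awat2 were Prcp, Lsp1, Dpysl2, Olfm1 and Itgb3, at 0.0653 to 0.0999. These are descriptions over 6 libraries without a test.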

How the data were processed

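Per the labels' protocols, polyadenylated RNA was made into dUTP-marked libraries with molecular identifiers and sequenced in pairs. The submitters' processing notes name cutadapt 1.9 and GRCm38. Not given in the sources used here are the aligner, the counter, the annotation, and whether counting used strand or identifiers. The authors deposited gene counts as whole numbers beside their own FPKM values, per the file headers. A further 6 value columns match no sample and were not used.

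Genes averaging 1 FPKM or more over the 6 libraries entered the two-sided quasi-likelihood test of edgeR 4.0.16 (R 4.3.3) on counts with TMM scaling and without covariates. Benjamini-Hochberg adjusted p were read at 0.05. SE was the size of the log2 fold change over the root of its F statistic. Log2 CPM used a prior count of 2. The 17 alternatives included DESeq2 1.42.0 and limma 3.58.1. The fits were first tested on simulated counts. A list's summed CPM adds all its genes in the table. Shared words, exons and overlaps came from GENCODE M21 (GRCm38).

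The members and the 9 other lists were chosen with earlier results of these data known. All members are named, and of each other list the up to 4 tested genes with the smallest p, of which 1 is not reported here. Other genes named, such as Fads3 and Mc1r, were chosen after their values were seen.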

Additional observations from a re-analysis of the deposited data

How the results depend on the processing

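Each alternative was run on all genes. edgeR called 0 genes, also with RLE size factors, no filter on low values, the replicate block, skeletal muscle and hair shaft genes removed, and any 1 library left out, where the count was 0 to 0. The count was 858 with DESeq2, 3 with quantile normalization, 17 and 2 with limma on log2(FPKM + 1) and log2(FPKM + 0.1), 2 with the filter raised to 5 FPKM, and 1 with the muscle or the adipocyte score as a covariate. Members called were 1 with DESeq2 (Fads2) and 0 otherwise. The members' median was 0.0125 with the adipocyte score and ran from −0.93 to 0.25 with 1 library left out. Fads2, Scd1, Scd3 and Awat1 kept their sign in every alternative that could be run.

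With quantile normalization Awat2 became −0.15 and Soat1 −0.21. Soat1 was −0.11 and −0.14 with limma at the pseudocounts of 1 and 0.1 and −0.24 with the block. Mc5r was 0.0125 with the adipocyte score. With 1 library left out, Awat2 ran from −0.0908 to 0.51, Mc5r from −0.56 to 0.33, Elovl3 from −0.44 to 0.62, Fa2h from −1.32 to 0.0453, Soat1 from −0.93 to 0.44 and Lrig1 from −0.35 to 0.0469. Among muscle markers, Actn3, Pvalb and Mylpf turned to 2.09, 1.66 and 2.20 with quantile normalization, to 1.75, 1.64 and 1.96 and to 1.898, 1.67 and 2.00 with limma at the 2 pseudocounts, to 0.72, 0.64 and 1.02 with the block and to 3.18, 2.87 and 3.25 with the adipocyte score, and with 1 library left out they ran from −1.24 to 1.11, −1.09 to 0.83 and −1.05 to 1.35.

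Libraries share replicate numbers in their titles. Deviations of same-numbered libraries correlated over genes at 0.222, 0.0294 and −0.115, and osimertinib 2 and 3 correlated best with another number, so the numbers were not taken as pairs. With the replicate block the members' median was −0.24 and edgeR called 0 of them.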

Other observations

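The melanocortin receptors of the skin differed from each other in pattern. Mc1r, the receptor of pigment cells, was at 3.76, 4.38 and 4.37 CPM in osimertinib libraries and rested on 1, 10 and 10 counts in controls 1, 2 and 3, whereas Mc5r overlapped between the groups. Mc1r was under the limit on mean FPKM and was not tested, and it was chosen after its values were seen. The receptor partner Mrap, the single tested gene of the 8 melanocortin genes found in the table, was at 2.62, 2.93 and 6.37 CPM in osimertinib libraries and at 9.13, 16.8 and 1.64 CPM in controls (log2 fold change −1.21 ± 0.82, SE, edgeR adjusted p = 0.562). For Mrap it was −0.39 without control 2, the library with the highest adipocyte sum, and −0.27 with the adipocyte score as a covariate.

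Far2, which makes the fatty alcohols of wax esters, and Cidea, a lipid droplet protein of sebocytes and brown fat, were also looked at after their values were seen. Far2 was at 26.8, 25.7 and 96.9 CPM in osimertinib libraries and at 98.9, 44.4 and 57.5 CPM in controls. Cidea was at 13.5, 10.9 and 37.0 CPM in osimertinib libraries and at 48.0, 24.5 and 27.1 CPM in controls. As in Fa2h, osimertinib 1 and 2 lay below every control in both genes. Gata6, a transcription factor of the gland duct that was not tested, was at 1.29, 0.717 and 1.71 CPM in osimertinib libraries and at 3.29, 2.59 and 2.62 CPM in controls.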
